A study of Mus musculus with 9 samples.

Results

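Retinas of mice with 1 Rbpms-CreERT2 allele were compared with wild-type retinas. The libraries were chosen by their genotype label, which gave 3 Cre/+ and 3 +/+ libraries, 6 of the 9 in the series. Cre/+ animals carry 1 allele with the CreERT2 knock-in at *Rbpms* and 1 wild-type allele, and +/+ animals were taken from the same litters. All are on a C57BL/6J background and were taken at P42, and each library holds the pair of retinas of 1 mouse. The remaining 3 libraries are Cre/Cre, with the knock-in on both alleles. They enter here only through the shared estimate of the spread and the average that decides which genes are tested. The comparison asks whether a single knock-in allele, the state in which the line is used as a Cre driver, alters the retinal transcriptome. The line descends from 1 founder crossed to C57BL/6J, and whether the sequenced animals had received tamoxifen is not given in the sources used here. Values are TPM, in which reads are divided by transcript length and each library is scaled to the same total. The comparison covers the 25239 gene names listed. Of these, 15198 reached an average of 1 TPM across the 9 libraries and were tested.

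*Rbpms* encodes an RNA-binding protein with an RNA recognition motif that regulates splicing, and in the retina it is a widely used marker of retinal ganglion cells, whose axons form the optic nerve. The knock-in places a P2A-CreERT2 cassette in frame at the end of the coding sequence. P2A is a short peptide at which the ribosome releases the upstream protein before it goes on with the next, so that RBPMS and the recombinase are made from 1 transcript. CreERT2 is a recombinase that enters the nucleus once it has bound tamoxifen. The junction is shown because it is the only part of the genome in which the groups are meant to differ. On the minus strand of chromosome 8 of GRCm38, the assembly of mm10, the stop codon of the GENCODE transcript Rbpms-203 lies at chr8:33795088-33795090 in exon 7, where the guide RNA described for the targeting also lies, and the 48 bases that end with it read as follows, with the stop codon in capitals.
Rbpms-203: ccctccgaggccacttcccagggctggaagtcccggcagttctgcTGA
Rbpms-201: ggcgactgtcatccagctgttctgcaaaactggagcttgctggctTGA
The transcript Rbpms-201 is set beside it because it ends elsewhere, at chr8:33784181-33784183 in exon 8, so that not every annotated form of the gene uses the stop codon at which the cassette was placed.

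The 6 libraries were alike in depth and overall profile. Aligned bases, which the ratio of coverage to FPKM gives, were 4.13 to 4.64 gigabases in +/+ and 4.17 to 4.65 in Cre/+. Pearson's r between any 2 of the 6 libraries over the tested genes was 0.984 to 0.991 on the log2(TPM + 1) scale. All 3 +/+ libraries and Cre/+ replicates 1 and 2 held *Xist* at 516 to 585 TPM and little signal from the Y chromosome. Cre/+ replicate 3 held *Xist* at 2.82 TPM and *Eif2s3y* at 156 TPM, so 1 of the 3 Cre/+ libraries and no +/+ library had the profile of a male. Values for sex-linked genes therefore follow 1 library.

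A single gene, *Hbb-bt*, passed an adjusted p of 0.05 in limma (Benjamini-Hochberg adjustment), which is 0.00658% of the genes tested, and it was lower in Cre/+. Without adjustment, 744 genes were higher (4.9% of those tested) and 884 were lower (5.82%) at a p under 0.05. The 3 Cre/+ values lay above all 3 +/+ values for 1808 genes (11.9%) and below them for 1570 (10.3%). Differences were small. The median absolute log2 fold change was 0.11, beside a median standard error of 0.11, and 240 genes differed by at least 1.5-fold and 65 by at least 2-fold. In data simulated gene by gene with the spread of all 9 libraries, 119 of 200 genes lowered by 1.5-fold were recovered and 0 of 200 lowered by 1.2-fold. Changes of the latter size were thus not detectable in that setting, which held no deviation shared between genes. With FPKM in place of TPM the split at a p under 0.05 was 293 higher and 869 lower, and no gene was called. The numbers also moved with single libraries. Without +/+ replicate 2, 416 genes were higher, and without Cre/+ replicate 3, 412 were. Without +/+ replicate 3, 345 were higher and 438 lower. Without Cre/Cre replicate 1, 1340 were higher and 1146 lower. That library stood apart in ribosomal RNA, with *Rn45s* at 9.21% of its TPM against 0.0827% to 0.336% in the others. The part of this in the shared spread was not tested.

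*Hbb-bt* encodes a chain of adult beta-globin, the oxygen carrier of red blood cells, and its call rests on how reads were divided between entries of the same locus. *Hbb-bt* and *Hbb-b2* have identical coordinates in the tables, chr7:103812524-103813923 on the minus strand of mm10. *Hbb-bt* had 8.29, 9.35 and 15.5 TPM in the +/+ libraries and was listed at 0 in all 3 Cre/+ libraries. *Hbb-b2* had 9.19, 10.1 and 16.7 TPM in +/+ and 16.6, 17.5 and 16.2 TPM in Cre/+. In +/+ the locus was thus divided between both names, whereas in Cre/+ it went to *Hbb-b2* alone. Their sum was 17.5, 19.5 and 32.2 TPM in +/+ (mean 23.0 ± 7.96, SD, n = 3) and 16.6, 17.5 and 16.2 TPM in Cre/+ (16.8 ± 0.646, SD, n = 3). The lowest +/+ sum and the highest Cre/+ sum were both 17.5 TPM, so the groups touch without a gap. When names with the same coordinates were summed before the fit, a step chosen after seeing the data, the log2 fold change of this locus was -0.39 (SE 0.36, adjusted p = 0.706 in limma). No gene was called among the 15175 entries that remained, where the smallest adjusted p in limma was 0.148, 745 entries were higher and 885 lower at an unadjusted p under 0.05. Without that step, the adjusted p of *Hbb-bt* in limma exceeded 0.05 when either of 2 libraries was left out, at 0.0515 without Cre/+ replicate 1 and 0.0555 without Cre/+ replicate 2.

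Other globin names switched in the same manner. *Hbb-bs* stood at 50.7 TPM in +/+ replicate 1, at 0.634 TPM in +/+ replicate 2 and was listed at 0 in the remaining 4. *Hbb-b1*, which overlaps it, had 0.601 TPM in +/+ replicate 1 and 36.4 to 70.3 TPM in the other 5. Their sum was 51.3, 46.9 and 70.3 TPM in +/+ and 37.1, 49.3 and 36.4 TPM in Cre/+, so the groups overlap. The alpha-globin reads stood under *Hba-a2* in 5 libraries and mostly under *Hba-a1* in Cre/+ replicate 3, where *Hba-a1* had 88.9 TPM and *Hba-a2* 6.63. All 6 adult globin names together gave 173, 206 and 267 TPM in +/+ and 145, 170 and 148 TPM in Cre/+. This sum does not depend on the division between names, and its highest Cre/+ value lay just below its lowest +/+ value. In all, 40 tested names in 15 sets shared all their coordinates with another tested name.

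**Figure D1:**
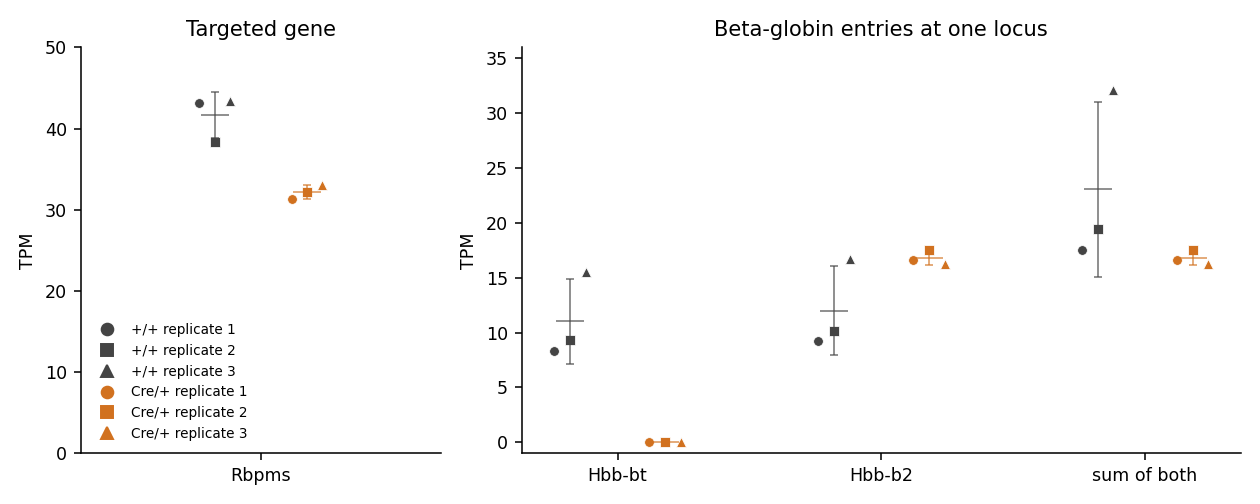
TPM of *Rbpms* (left) and of the 2 beta-globin names at 1 locus with their sum (right) in each library. Symbols are libraries, the horizontal bar is the mean and the whiskers are the SD of 3 libraries. *Rbpms* was lower in all 3 Cre/+ libraries, *Hbb-bt* was listed at 0 in Cre/+, and for the sum of *Hbb-bt* and *Hbb-b2* the lowest +/+ and the highest Cre/+ library were level at 17.5 TPM.

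*Rbpms* itself was lower in each Cre/+ library than in any +/+ library, with means of 32.2 ± 0.888 TPM (SD, n = 3) and 41.7 ± 2.85 TPM (SD, n = 3). Cre/+ retinas held 77.3% of the wild-type level. The log2 fold change was -0.36 (SE 0.10), with a 95% interval of -0.57 to -0.15, and it was ranked 88 by p among the 15198 genes. It did not pass the adjustment (adjusted p = 0.355 in limma), and a two-sided exact permutation test over the 6 libraries gave p = 0.1, the smallest that 3 against 3 libraries allow. The deposited value cannot assign reads to the knock-in or the wild-type allele. In whole retina, fewer cells of a type and less RNA per cell cannot be told apart from the level of 1 gene. The 22 ganglion cell markers described further on had a median log2 fold change of -0.05, with 9 of them above 0. *Rbpms2*, the paralog that is also expressed in ganglion cells, had 31.8, 34.9 and 36.7 TPM in +/+ and 30.3, 31.7 and 34.4 TPM in Cre/+, and these ranges overlap (log2 fold change -0.10, SE 0.10, adjusted p = 0.733 in limma).

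Genes around the cassette were looked at one by one. Of 18 other genes listed within 1 megabase of *Rbpms*, 15 were tested, and 1 of the 15 had an unadjusted p under 0.05. Over all genes, 4.9% were higher and 5.82% lower at this limit. The 1 gene was *Smim18*, which encodes a small membrane protein, with 13.4, 10.8 and 10.1 TPM in +/+ and 14.4, 17.6 and 11.9 TPM in Cre/+ (log2 fold change 0.32, SE 0.14, adjusted p = 0.435 in limma), and these values overlap. *Gtf2e2*, a subunit of the general transcription factor TFIIE and the nearest tested neighbour, had a log2 fold change of 0.08 (SE 0.09). *Gsr*, the glutathione reductase that keeps cellular glutathione reduced, had -0.06 (SE 0.10). *Ppp2cb*, a catalytic subunit of protein phosphatase PP2A, had 0.03 (SE 0.07). After the correction for GC content and length described below, *Ppp2cb* had an unadjusted p under 0.05 in limma, and *Smim18* no longer did. Over the 15 genes the log2 fold change ran from -0.13 in *Tex15* to 1.22 in *Mir6395*, a locus at 0 to 5.39 TPM whose groups overlap.

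Across all genes, the difference between the groups followed the base composition of the transcripts. For 15048 tested genes, the GC content and length of the longest annotated transcript (protein-coding where there is one) were taken from GENCODE. Spearman's rho across genes between the log2 fold change and GC content was -0.587, and that with length was 0.223. These are descriptions, since genes are not independent replicates. In the 1 of 5 equal groups of genes with the lowest GC content (28.6% to 44.4%), the median log2 fold change was 0.15, and 536 genes were higher and 13 lower at an unadjusted p under 0.05. In the group with the highest GC content (56.1% to 82.2%) the median was -0.13, with 12 genes higher and 532 lower. The group of lowest GC content thus held 73.2% of all higher genes with a known GC content, and that of highest GC content held 60.5% of all lower ones.

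The slope differed between single libraries as well as between the groups. Spearman's rho between GC content and a gene's deviation from its mean over the 6 libraries was -0.385, -0.301 and -0.345 in the Cre/+ libraries and 0.0477, 0.369 and 0.535 in the +/+ libraries. All 3 Cre/+ libraries therefore lay on 1 side, and the +/+ libraries differed among themselves more than the Cre/+ libraries did. A gene's deviations cancel out over the 6 libraries, so the sign in 1 library depends on the others. Leaving out any single library kept the rho between fold change and GC content at -0.611 to -0.492, with the weakest value without +/+ replicate 3. What sets this slope was not tested. To see which differences lie beyond it, the part of each library's deviation that GC content and length predict was removed with smooth curves, a correction chosen after seeing the data. At an unadjusted p under 0.05, 474 genes were then higher (3.15%) and 536 lower (3.56%), 573 of them among the 1628 before the correction. *Hbb-bt* remained the only gene called (adjusted p = 0.00357 in limma).

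**Figure D2:**
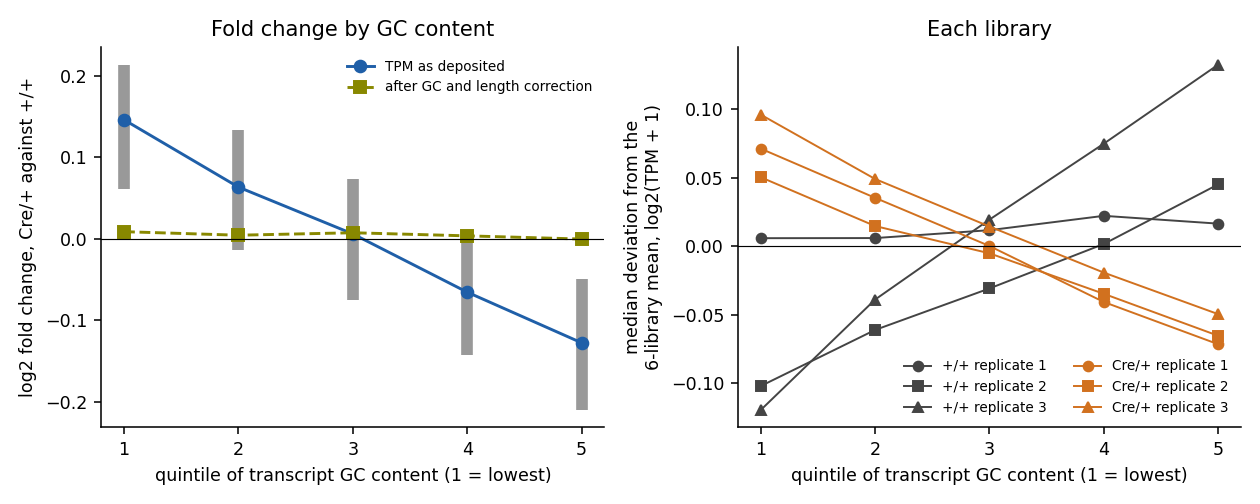
Left, log2 fold change of Cre/+ against +/+ in 5 equal groups of genes ordered by transcript GC content. Circles are medians of the deposited TPM, grey bars span the quartiles, and squares are medians after correction for GC content and length. Medians ran from 0.15 in the lowest to -0.13 in the highest group, and after correction they lay within 0.01 of 0. Right, median deviation of each library from the 6-library mean of log2(TPM + 1) in the same groups, in which the Cre/+ lines fall and those of +/+ replicates 2 and 3 climb.

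The genes with the smallest p whose groups did not overlap, before and after rescaling of the libraries, were 10 higher and 10 lower genes, *Hbb-bt* among the latter. None of the other 19 passed the adjustment. Among protein-coding genes that were lower, *Ramp3*, a partner protein that sets the ligand of the calcitonin receptor-like receptor, had 55.9, 48.1 and 50.6 TPM in +/+ and 37.9, 37.2 and 38.9 TPM in Cre/+ (log2 fold change -0.43, SE 0.08, adjusted p = 0.13 in limma). *Hrh3*, the histamine H3 receptor, had 34.2, 40.5 and 37.1 TPM in +/+ and 27.6, 26.5 and 24.8 TPM in Cre/+. In both genes the Cre/+ libraries were close together and well below the lowest +/+ library. *Mpv17l2*, a protein of the mitochondrial inner membrane, had a log2 fold change of -0.57 (SE 0.11), and *Alkbh4*, a dioxygenase of the AlkB family, had -0.48 (SE 0.10). The transcripts of *Ramp3*, *Hrh3* and *Mpv17l2* have GC contents of 56.1%, 62.2% and 61.0%, and after the GC correction their log2 fold changes were -0.31, -0.33 and -0.41.

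Among higher genes, *Xlr3b*, an X-linked gene of a family with several near-identical copies, had 9.33, 9.91 and 11.4 TPM in +/+ and 38.6, 20.6 and 19.8 TPM in Cre/+ (log2 fold change 1.22, SE 0.24, adjusted p = 0.309 in limma). Its value is uncertain, because reads can be shared with the other copies, and it stood highest in Cre/+ replicate 1. *Moap1*, a partner of BAX in apoptosis, had 14.3, 15.2 and 11.2 TPM in +/+ and 24.97, 19.8 and 19.8 TPM in Cre/+. *Tank*, an adaptor that binds TRAF proteins in NF-kappaB signalling, had 36.2, 37.1 and 36.6 TPM in +/+ and 51.3, 45.7 and 44.9 TPM in Cre/+. The GC correction left *Moap1* at a log2 fold change of 0.66 from 0.63, and it lowered *Tank* from 0.36 to 0.18, whose transcript has a GC content of 38.4%. *Abhd17b*, a depalmitoylase, *Tmed5*, a cargo receptor between endoplasmic reticulum and Golgi, and the zinc finger genes *Zfp970* and *Zfp386* likewise lay between 0.37 and 0.43 before the correction and between 0.20 and 0.25 after it. *Med9os*, a noncoding transcript that lies antisense at *Med9*, had 12.9, 12.3 and 13.1 TPM in +/+ and 17.2, 17.7 and 21.2 TPM in Cre/+. Whether the counting used the strand of the reads is not given in the sources used here, so reads of *Med9os* and of its partner may not be separated.

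**Figure D3:**
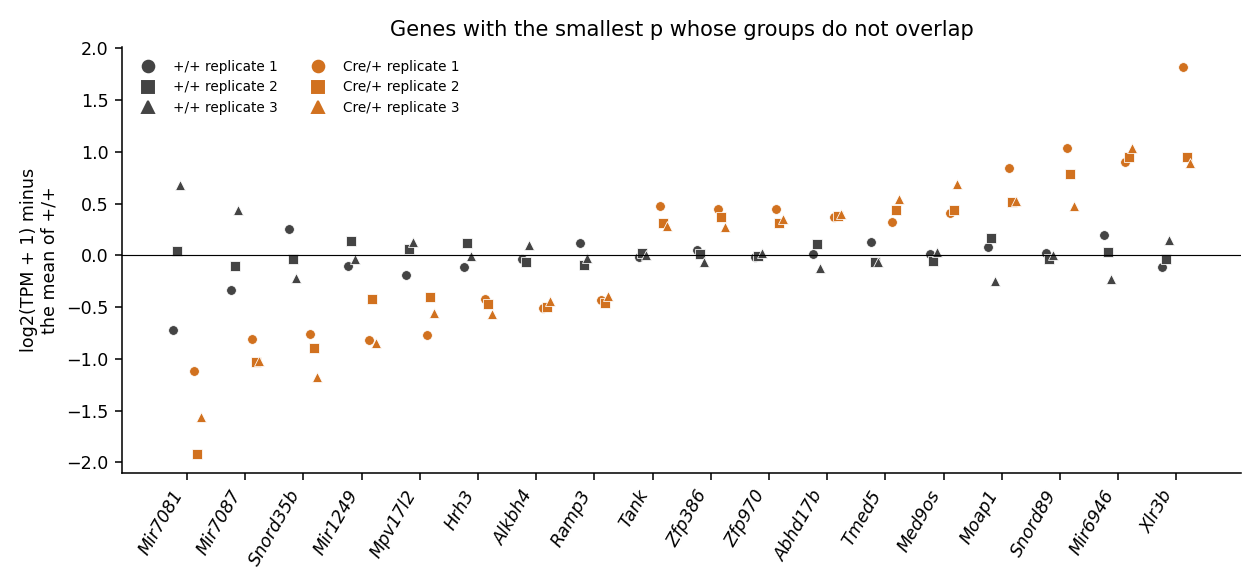
Value of log2(TPM + 1) in each library minus the mean of the 3 +/+ libraries, for 18 of the genes other than *Hbb-bt* with the smallest p whose groups do not overlap. The symbols of Cre/+ lie wholly below those of +/+ in the 8 genes on the left and wholly above them in the 10 on the right. *Mir7081* and *Mir7087* show the widest spread within +/+.

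The remaining 6 of these 20 were loci of small RNA genes at low levels, 4 microRNAs and 2 small nucleolar RNAs (snoRNAs). The libraries were made from polyadenylated RNA, so the TPM of a microRNA locus counts fragments over its hairpin, which lies inside a longer host transcript, and not the mature microRNA. A mature microRNA recognises its targets mainly through its seed, bases 2 to 8. The mature forms are shown to say which seeds these loci carry. They come from RefSeq on GRCm38.p6, where 263 of the 304 tested microRNA loci have a hairpin entry, and the seed is in capitals.
mmu-miR-6946-5p: aAAAGGGAgagaaagaaaugc
mmu-miR-6946-3p: uUUCUUCUcuucccuuucag
mmu-miR-1249-3p: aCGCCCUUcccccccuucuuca
mmu-miR-7087-5p: aGGCAGGUguggagcuggucu
mmu-miR-7087-3p: uGCUGGCUcucuccccugccag
mmu-miR-7081-5p: aGAGGAGGgugcucggccggggauua
mmu-miR-7081-3p: uUCCCCUGguauccuccucaca
The 7 forms carry 7 different seeds. The locus *Mir6946* had 3.45, 2.96 and 2.30 TPM in +/+ and 6.25, 6.48 and 6.97 TPM in Cre/+ (log2 fold change 0.97, SE 0.17, adjusted p = 0.13 in limma). Its host *Sec24c*, a coat protein of vesicles that leave the endoplasmic reticulum, had a log2 fold change of -0.05 (SE 0.07). *Mir1249* had 15.6, 18.6 and 16.3 TPM in +/+ and 9.13, 12.3 and 8.88 TPM in Cre/+, while its host *5031439G07Rik* had -0.10 (SE 0.09). Loci and hosts thus had different values, as they did for *Mir7087* in *Sidt2* and *Mir7081* in *Dnmt1*, whose hosts had log2 fold changes of -0.08 (SE 0.08) and -0.05 (SE 0.07). *Snord35b*, a snoRNA that guides methylation of ribosomal RNA, had 8.95, 7.14 and 6.17 TPM in +/+ and 3.92, 3.49 and 2.69 TPM in Cre/+. *Snord89* had 4.40, 4.18 and 4.31 TPM in +/+ and 9.90, 8.12 and 6.39 TPM in Cre/+. Annotated lengths of 69 to 110 bases make these values sensitive to few fragments. Over all loci, 14 of 304 microRNA genes were higher and 21 lower at an unadjusted p under 0.05, and 11 of 96 snoRNA genes were higher and 5 lower, against 4.9% and 5.82% of all genes. After the GC correction 4 snoRNA genes were higher and 4 lower, and the median of the list went from 0.05 to -0.06.

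The cells that express the driver were described by 22 markers of retinal ganglion cells, all of which were tested. None passed the adjustment, 2 were lower and none higher at an unadjusted p under 0.05, beside the 5.82% and 4.9% of all genes given above. Their median log2 fold change was -0.05 (all genes 0.00), and -0.01 after the GC correction. *Sncg*, a synuclein abundant in ganglion cells, had 280, 287 and 258 TPM in +/+ and 241, 230 and 241 TPM in Cre/+. *Tubb3*, a neuronal tubulin, had 157, 163 and 170 TPM in +/+ and 146, 139 and 145 TPM in Cre/+. Both have transcripts rich in GC (56.6% and 57.9%), and neither kept an unadjusted p under 0.05 after the GC correction. After it, 16 of the 22 markers lay below 0, against 13 before it, and 1 was higher and none lower at an unadjusted p under 0.05. *Nefl*, the light neurofilament of large axons and the most abundant marker of the list, had 570, 542 and 563 TPM in +/+ and 560, 562 and 577 TPM in Cre/+, and these overlap. The summed TPM of the 22 genes was 2725, 2705 and 2669 in +/+ and 2523, 2576 and 2625 in Cre/+, and these sums do not overlap.

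Photoreceptors make up most of the retina and most of its RNA. The summed TPM of 24 rod and cone markers was 75091, 76523 and 77740 in +/+ and 74938, 75693 and 73451 in Cre/+, and the groups overlap. Of the 24 markers, 2 were higher and none lower at an unadjusted p under 0.05, beside 4.9% and 5.82% of all genes. *Cngb3*, the beta subunit of the cyclic nucleotide-gated channel of cones, had 17.6, 16.3 and 14.3 TPM in +/+ and 20.6, 22.0 and 23.3 TPM in Cre/+ (log2 fold change 0.43, SE 0.12, adjusted p = 0.355 in limma), and 0.27 after the GC correction. *Crx*, a homeobox factor of rods and cones, had 1124, 1088 and 1124 TPM in +/+ and 1225, 1260 and 1218 TPM in Cre/+. Its log2 fold change was 0.15 (SE 0.07) and 0.14 after the correction. None of 19 bipolar cell markers passed an unadjusted p under 0.05. Among 19 amacrine markers 1 was lower, *Slc32a1*, the vesicular transporter of GABA and glycine, and among 8 horizontal cell markers 1 was lower, the bicarbonate exchanger *Slc4a3*. Among 16 Müller glia markers 2 were lower, of which *Dbi*, the acyl-CoA-binding protein, had the smallest p and kept an unadjusted p under 0.05 after the correction. Medians of these 4 lists were between -0.04 and 0.03.

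In genes of the photoreceptor cilium and disc, 3 of 24 were higher and none lower at an unadjusted p under 0.05, and in 6 of 24 all Cre/+ values lay above all +/+ values, where the shares of all genes were 4.9% and 11.9%. After the GC correction 1 of the 24 was higher at an unadjusted p under 0.05. *Rp1*, a microtubule protein of the outer segment axoneme, had 934, 838 and 827 TPM in +/+ and 1110, 1036 and 1066 TPM in Cre/+ (log2 fold change 0.31, SE 0.09, adjusted p = 0.365 in limma). The others were *Cep290*, of the ciliary transition zone, at 0.27 (SE 0.10) and *Arl6*, a small GTPase that recruits the BBSome, at 0.21 (SE 0.09). All 3 have transcripts low in GC (38.7% to 40.4%), and after the correction their log2 fold changes were 0.13, 0.08 and 0.08. Among 15 tested genes of photoresponse recovery, 2 were higher, *Rgs9*, which speeds the shutoff of transducin, at 0.19 (SE 0.08), and *Gucy2f*, a guanylate cyclase that restores cyclic GMP, at 0.29 (SE 0.11). After the correction these 2 were at 0.16 and 0.15, and 3 of the 15 were higher at an unadjusted p under 0.05, where the share of all genes was 3.15%. The median of this list moved away from 0, from 0.07 to 0.09, with 12 of 15 genes above 0 before and 14 after. That of the 24 rod and cone markers went from -0.02 to 0.05.

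Inhibitory receptors and glycolysis had medians on opposite sides of 0. Of 22 GABA and glycine receptor genes, 19 lay above 0, with a median log2 fold change of 0.14. At an unadjusted p under 0.05, 3 were higher and 1 was lower, where the shares of all genes were 4.9% and 5.82%. Among the higher were *Glra3* and *Glrb* with GC contents of 35.2% and 40.8%, and the lower was *Gabrd* with 56.8%. The median GC content of the list was 42.6%, against 50.3% over all tested genes, and its median fold change after correction was 0.04, with none of the 22 past an unadjusted p under 0.05. Of 22 genes of glycolysis and lactate transport, 18 lay below 0, with a median of -0.11. The list had a median GC content of 54.3%, and its corrected median was -0.02, with 15 of 22 below 0. At an unadjusted p under 0.05, 3 were lower and none higher before the correction, and 3 lower and 2 higher after it. Over all genes, 3.56% were lower and 3.15% higher after it. *Gapdh*, the glyceraldehyde-3-phosphate dehydrogenase, had 629, 633 and 674 TPM in +/+ and 542, 538 and 508 TPM in Cre/+ (log2 fold change -0.29, SE 0.07, adjusted p = 0.319 in limma), and -0.16 after the correction. *Slc16a3*, a lactate exporter, was at -0.34 (SE 0.11), and *Aldoa*, the most abundant gene of the list, was at -0.15 (SE 0.08).

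Genes of protein synthesis and respiration had medians slightly below 0, while the summed TPM of each list overlapped between the groups. Of 79 cytosolic ribosomal protein genes, 62 were below 0 (median log2 fold change -0.08). At an unadjusted p under 0.05, 10 were lower and none higher, where the shares of all genes were 5.82% and 4.9%. After the correction the median was -0.03, and 12 were lower and 2 higher, where the shares of all genes were 3.56% and 3.15%. Before the correction, the median was -0.12 without +/+ replicate 1 and -0.05 without +/+ replicate 2. The summed TPM of this list was 31478, 35539 and 34585 in +/+ and 33046, 32590 and 31688 in Cre/+. *Rpl10a*, a protein of the large subunit, had 487, 563 and 611 TPM in +/+ and 451, 463 and 456 TPM in Cre/+. Mitochondrial ribosomal protein genes (78 tested) had a median of -0.05, and -0.03 after the correction. Of these, 7 were lower and 2 higher before the correction, and 9 lower and 1 higher after it. *Mrps28* had the smallest p before it (log2 fold change -0.46, SE 0.11). Nuclear-encoded subunits of the respiratory chain (83 tested) had a median of -0.05, with 13 lower and 1 higher before the correction and 6 lower and 2 higher after it. *Cox6a1*, of cytochrome c oxidase, was at -0.34 (SE 0.10) before and -0.19 after.

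**Figure D4:**
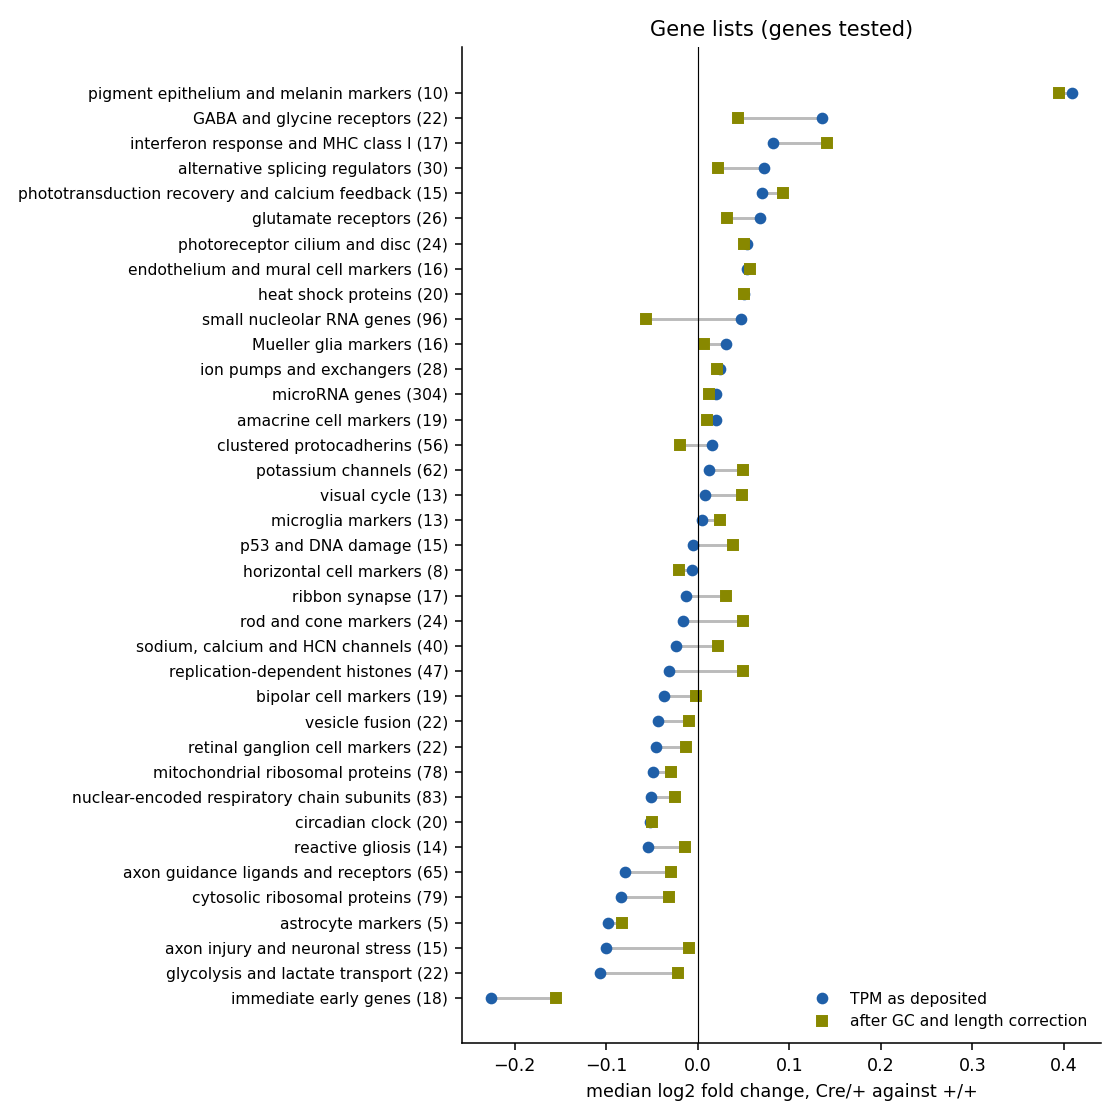
Median log2 fold change of Cre/+ against +/+ in each gene list with at least 5 genes tested, from the deposited TPM (circles) and after correction for GC content and length (squares), with the number of genes tested in parentheses. Lens markers, crystallins, blood markers, X-linked genes that escape inactivation and the lists added after values were seen are left out. The lists with the lowest and highest medians from the deposited TPM are immediate early genes (-0.23) and pigment epithelium markers (0.41).

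Some immediate early genes, which follow light and neuronal activity, differed between libraries within Cre/+. In some clock genes the values of the groups did not overlap, and no clock gene passed the adjustment. Of 18 tested immediate early genes, which are transcribed within minutes of stimulation, 17 lay below 0, with a median log2 fold change of -0.23. *Fos* had 46.6, 50.4 and 56.1 TPM in +/+ and 74.0, 28.9 and 24.4 TPM in Cre/+, and *Egr1* had 32.8, 23.5 and 30.7 TPM in +/+ and 70.7, 14.3 and 12.9 TPM in Cre/+. Cre/+ replicate 1 was the highest of the 6 libraries for both genes, whereas replicates 2 and 3 were below every +/+ library. *Nr4a3*, an orphan nuclear receptor, was lower in all 3, with 8.63, 5.55 and 6.04 TPM in +/+ and 2.20, 2.99 and 2.997 TPM in Cre/+ (log2 fold change -1.04, SE 0.30, adjusted p = 0.377 in limma), and the GC correction left it at -1.08. Without Cre/+ replicate 1 the median of the list was -0.33, and without Cre/+ replicate 3 it was -0.13. Of 20 circadian clock genes, 9 had all Cre/+ values below all +/+ values and 1 had them above, where the shares over all genes were 10.3% and 11.9%. *Per1*, a repressor of the clock, had 97.5, 95.6 and 103 TPM in +/+ and 78.1, 68.4 and 65.4 TPM in Cre/+. *Per2*, *Cry2* and *Nr1d1*, also repressors, were lower at an unadjusted p under 0.05, with log2 fold changes of -0.23, -0.19 and -0.20, while *Clock*, *Rora* and *Nr1d2* were higher, at 0.21, 0.23 and 0.23. *Clock*, *Rora* and *Nr1d2* have GC contents of 40.9% to 41.8%, the 4 lower genes 54.3% to 59.4%, and after the correction 1 of the 7, *Cry2*, kept an unadjusted p under 0.05.

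Damage responses were described by several lists. Of 15 tested genes of the p53 response, 3 were higher and 3 lower at an unadjusted p under 0.05. The shares of all genes were 4.9% and 5.82%. The higher genes were *Trp53inp1*, *Ccng1* and *Rrm2b*, with GC contents of 38.8% to 40.8%. The lower genes were *Bax* and *Bbc3*, which encode proteins that promote apoptosis at mitochondria, and *Gadd45b*, with GC contents of 56.9% to 65.2%. *Bax* had 82.4, 81.7 and 80.9 TPM in +/+ and 66.1, 62.9 and 70.4 TPM in Cre/+ (log2 fold change -0.29, SE 0.07, adjusted p = 0.327 in limma) and was at -0.12 after the correction. *Bbc3* had 5.87, 5.83 and 8.30 TPM in +/+ and 4.39, 3.89 and 2.23 TPM in Cre/+, and at -0.62 after the correction it alone of these 6 kept an unadjusted p under 0.05. Of 15 tested genes of axon injury and neuronal stress, 11 lay below 0 (median -0.10, and -0.01 after the correction). At an unadjusted p under 0.05, *Bbc3*, *Ddit4* and *Atf4* were lower and none was higher. Of 30 regulators of alternative splicing, *Rbpms* was lower and *Mbnl1* was higher, at 0.27 (SE 0.11) before and 0.10 after the correction. Interferon response and MHC class I genes (17 tested), heat shock proteins (20), reactive gliosis genes (14), microglia markers (13) and vesicle fusion genes (22) each had 0 to 2 members past an unadjusted p under 0.05 in each direction. Of these, *Psmb9*, a subunit of the immunoproteasome, had 3.50, 3.92 and 3.04 TPM in +/+ and 2.83, 1.28 and 1.34 TPM in Cre/+.

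Transcripts of neighbouring tissue differed between single libraries. The summed TPM of 17 lens markers was 437, 427 and 398 in +/+ and 356, 90.3 and 352 in Cre/+, and 16 of the 17 were lowest in Cre/+ replicate 2. *Cryaa*, alpha-crystallin A, had 79.3, 95.7 and 68.3 TPM in +/+ and 59.8, 6.37 and 66.4 TPM in Cre/+. The median log2 fold change of the 16 tested lens markers was -0.91, and -0.29 without Cre/+ replicate 2, so 1 library decides the size of this value. Markers of the retinal pigment epithelium, the pigmented layer behind the photoreceptors, moved the other way, with a median of 0.41 over 10 tested genes. Without *Rlbp1*, which Müller glia express too, their summed TPM was 58.2, 68.8 and 31.7 in +/+ and 117, 76.9 and 53.2 in Cre/+, which overlap. *Rpe65*, the isomerase of the visual cycle, had 3.47, 4.47 and 1.03 TPM in +/+ and 11.6, 6.63 and 4.73 TPM in Cre/+. *Rdh5*, a retinol dehydrogenase of the same cells, was the 1 member with an unadjusted p under 0.05 and was at 0.51 (SE 0.21). Of the 13 genes, 9 were highest in Cre/+ replicate 1 and 7 lowest in +/+ replicate 3, and the median without Cre/+ replicate 1 was 0.21. Summed TPM of endothelial and mural cell markers was 346 to 381 in +/+ and 356 to 375 in Cre/+, and that of microglia markers 112 to 124 in both groups. The part of dissection in these values was not tested.

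**Figure D5:**
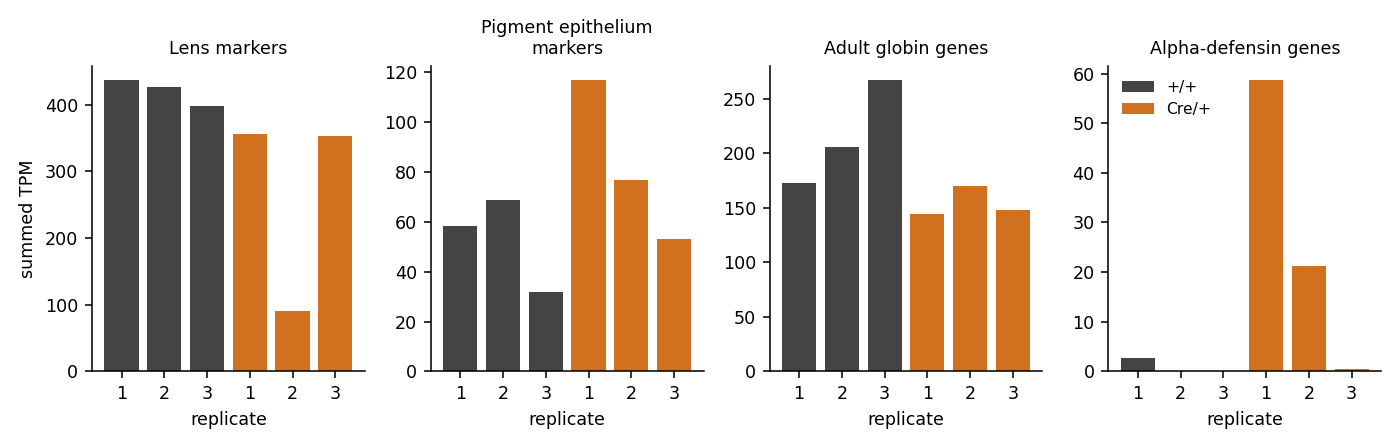
Summed TPM in each library of lens markers, pigment epithelium markers without *Rlbp1*, adult globin genes and alpha-defensin genes, with 1 bar per library and an axis from 0 in each panel. Lens transcripts were lowest in Cre/+ replicate 2 (90.3 TPM), pigment epithelium transcripts highest in Cre/+ replicate 1 (117 TPM), and alpha-defensin transcripts were above 3 TPM in Cre/+ replicates 1 and 2 alone.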

How the data were processed

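Strand-specific poly(A) libraries were sequenced from the retinas of 9 mice, 3 of each genotype, at P42. The authors used Trimmomatic for trimming, HISAT2 for alignment to mm10 and StringTie for gene levels, and versions and annotation are not given in the sources used here. They deposited TPM, FPKM (fragments per length and depth) and coverage (mean reads over a gene) per gene. The deposited tables hold no counts, so the DESeq2 comparison of the methods was not repeated, and counting error per gene is unknown. Rows that share a name were added up. Genes averaging 1 TPM or more were tested with limma 3.58.1 in R 4.3.3 (trend and robust prior) on log2(TPM + 1), a scale that understates fold changes of low genes. A single model held all 9 libraries, with genotype as its term and 6 residual degrees of freedom. The adjustment of p-values (Benjamini-Hochberg) ran over all genes tested. Gene lists got no set test: their counts and medians stand beside those of all genes. Replicates are separate mice. The correction for GC content and length removed, per library, natural splines with 5 degrees of freedom each. The scripts were tested on simulated data, where 7 false calls came with the 1.5-fold changes and none without change.

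The members, gene lists and tests were chosen with earlier results of these data known. Named by rule were *Rbpms*, *Rbpms2*, genes past the adjusted p, the 10 higher and 10 lower genes of smallest p whose groups do not overlap (as deposited and after median-ratio scaling), in each list the member with the smallest p and that with the highest TPM, genes within 1 megabase of *Rbpms*, sex-linked genes and globins. All other genes were named after their values were seen. Values of some genes are not reported here.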

Additional observations from a re-analysis of the deposited data

How the results depend on the processing

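The count of genes called (1 in the reported fit) was 1 under 8 of the planned settings other than leaving out a library, 2 with only the 6 libraries, with or without median-ratio scaling, and 0 with FPKM. The second gene was *Hmga1b*. Among the settings added after seeing the data, it was 2 with the GC correction and only the 6 libraries, with the GC correction without Cre/+ replicate 2 and with median-ratio scaling of the 6 libraries without Cre/+ replicate 3, and 0 with the GC correction and the replicate block, with the GC correction without Cre/+ replicate 3 and with names of the same coordinates summed. Leaving out 1 library gave 1 to 5 calls, also with a limit of 2-fold. With that limit, the count was 0 with FPKM, with names summed and in the same 2 GC-corrected fits, and 2 with the GC correction without Cre/+ replicate 2. The 5 genes without Cre/+ replicate 3 were *Hbb-bt*, *Defa30*, *Pla2g2a*, *Defa17* and *Defa3*. Without Cre/+ replicate 1, *Hbb-bt* was not called and 4 other genes were (*Apoo-ps*, *Dio2*, *Mir3061* and *Xlr3b*), and without Cre/+ replicate 2 those called in its place were *Gstp2*, *Mir1249* and *Znf41-ps*. *Hbb-bt* was joined by *Dynlt1b* without +/+ replicate 1, by *Mir697* without +/+ replicate 3, by *Hmga1b* without Cre/Cre replicate 2, and by *Hmga1b* and *2310030A07Rik* without Cre/Cre replicate 3. Beyond the fewer libraries or genes in these fits, the cause was not tested.

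Genes higher at an unadjusted p under 0.05 (744) numbered 1225 after median-ratio scaling, 1378 with only the 6 libraries, 1325 with both, 293 with FPKM, 1290 with median-ratio scaling without Cre/Cre replicate 1, 474 with the GC correction, 437 with the GC correction and the replicate block, and 325 and 335 with the GC correction without Cre/+ replicate 3 and 2. Leaving out 1 library gave 345 to 1340. Genes lower (884) numbered 536 with the GC correction, 474 with the block added, and 400 and 457 without Cre/+ replicates 3 and 2, and 438 to 1146 when 1 library was left out. *Rbpms* lay between -0.42 and -0.33 on the log2 scale in all 28 alternatives and was called in none (adjusted p 0.128 to 0.881 in limma). The 20 genes of smallest p kept their direction in every alternative. They were chosen because their groups do not overlap, so leaving out 1 library could not reverse them, and this does not measure stability. Of all 118 tested genes named by the rule besides *Rbpms*, 33 changed sign in at least 1 alternative.

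Replicate numbers did not mark pairs. Deviations of same-numbered +/+ and Cre/+ libraries had correlations of -0.0120, 0.0131 and 0.0116. With replicate number as a block, 1 gene was called, and 636 genes were higher and 860 lower. TPM hold no counts, so the precision of low genes rests on 3 libraries a group.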

Other observations

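Transcripts of the intestinal lining were present in 2 of the 3 Cre/+ libraries. The genes of this paragraph were chosen after their values were seen. Alpha-defensins are antimicrobial peptides that Paneth cells of the small intestine secrete. Of 30 alpha-defensin genes in the tables, 9 were above 0 in the 6 libraries, and their summed TPM was 2.62, 0 and 0 in +/+ and 58.7, 21.2 and 0.518 in Cre/+. *Defa30* had 13.1 and 3.52 TPM in Cre/+ replicates 1 and 2 and was listed at 0 in the other 4. *Pla2g2a*, a secreted phospholipase of Paneth cells, had 6.97 and 2.76 TPM in the same libraries and was listed at 0 in the other 4. *Mptx2*, a pentraxin of the gut, had 5.21 and 2.68 TPM there and at most 1.32 TPM in the other 4, and *Ang4*, an angiogenin of Paneth cells, had 4.14 and 2.07 TPM and at most 0.267. *Muc2*, the main mucin of goblet cells, had 2.97, 3.601 and 2.82 TPM in +/+ and 3.06, 3.63 and 3.84 TPM in Cre/+ and did not follow this pattern. Where these transcripts came from was not tested. When Cre/+ replicate 3 is left out of the fit, 4 of the 5 genes called are of this kind. That fit drops the Cre/+ library in which these 4 were listed at 0, so the calls are no independent support.

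*Hmga1b* and *Hmga1*, 2 names for a chromatin protein gene on chromosome 17 whose spans overlap (27556653 to 27563671 and 27556574 to 27563672, plus strand of mm10), were also looked at after their values were seen. *Hmga1b* had 81.7, 72.6 and 81.4 TPM in +/+ and 45.8, 43.4 and 41.0 TPM in Cre/+ (log2 fold change -0.84, SE 0.16, adjusted p = 0.309 in limma, and 0.000622 with only the 6 libraries). *Hmga1* had 47.3, 58.4 and 53.4 TPM in +/+ and 60.5, 64.1 and 67.2 TPM in Cre/+, in the opposite direction. Their sum was 132 ± 3.01 TPM (SD, n = 3) in +/+ and 107 ± 0.941 TPM (SD, n = 3) in Cre/+. The groups did not overlap once the names were summed.

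Zinc finger genes named Zfp, many of which encode repressors of transposable elements, were counted after *Zfp970* and *Zfp386* had been seen. Of 374 tested, 269 lay above 0 (median log2 fold change 0.09), and 53 were higher and 14 lower at an unadjusted p under 0.05. The shares of all genes were 4.9% and 5.82%. The list had a median GC content of 44.6%. After the GC correction its median fold change was 0.02, with 15 higher and 11 lower, where the shares of all genes were 3.15% and 3.56%.

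Chromosomes differed slightly. The median log2 fold change was highest on the X chromosome (0.06, 524 genes, median GC content 45.9%) and lowest on chromosome 7 (-0.05, 1175 genes, 53.3%), and after the correction these medians were 0.01 and -0.0023. The X chromosome median was 0.07 without Cre/+ replicate 3, the library low in *Xist*.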
